A study of Mus musculus with 2 samples.

Results

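The genes described here encode the ephrins, their Eph receptors, the semaphorins of classes 3 to 7, the plexins and the neuropilins, which are ligands and receptors of cell guidance. They were taken from the deposited expression table by gene symbol alone, whatever their level, and 53 of 42392 gene IDs matched. These are 8 ephrins, 14 Eph receptors, 20 semaphorins, 9 plexins and 2 neuropilins. The levels come from 1 RNA-seq library of hair follicle stem cells in anagen II-III, the early growth phase of the follicle. The cells were sorted from the unwounded skin of female mice for CD34 and a high level of integrin alpha 6, leaving out cells with SCA1, CD140a, CD117, CD31 or CD45. The genotype was K15-CrePGR; Shh+/-, a Cre fused to the progesterone receptor under a keratin 15 promoter together with 1 functional copy of Shh, and the treatment was RU486, the ligand of that Cre, for 8 days. The other sample of the series, in telogen, has the same genotype, sex and treatment, and its library was not analysed here because no column of the table has a name that fits it alone. The labels give the number of neither animals nor pooled skins.

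Guidance genes were first studied in growing nerve fibres. Ephrins are bound to the membrane, the A class by a lipid anchor and the B class by a transmembrane stretch, so that an Eph receptor tyrosine kinase on a neighbouring cell meets them only at contact, and both cells can respond. Semaphorins are secreted in class 3 and mostly membrane-bound in classes 4 to 7, and they act through plexins, whose cytoplasmic part acts on small GTPases of the Ras and Rap families. Most class 3 semaphorins need a neuropilin as the binding partner of an A plexin. In skin, Eph signalling is known from contacts between keratinocytes, and semaphorins from the routing of nerves and vessels.

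Values are TPM, a relative transcript abundance, which divide by gene length, so that levels of different genes can be set side by side within the library. With 1 library there is no replicate, no value carries an error, and genes next to each other in the order of levels are not called different. The read depth is unknown, so no interval or detection limit could be set. Markers of the labelled cell type were present: all 8 bulge markers were above 1 TPM, from 16.1 TPM for Nfatc1 to 3364 TPM for Krt15. The bulge list includes Cd34 and Itga6, which encode proteins that the cells were sorted for. All 5 basal keratinocyte markers reached 72.8 TPM or more. Some markers of other skin cells reached 1 TPM too. They were 6 of 6 fibroblast, 5 of 5 melanocyte, 4 of 6 endothelial, 3 of 6 leukocyte and 3 of 5 Schwann cell genes. Summed, these lists held 879, 38.2, 12.3, 29.0 and 14.1 TPM in the same order, against 3935 TPM for the bulge markers. Of all nuclear protein-coding genes, 56.0% reached 1 TPM. The endothelial, leukocyte and Schwann cell counts lay near that share, so they alone do not show that those cells were present. Krt15 held most of the bulge sum, and the other 7 bulge markers summed to 571 TPM, less than the fibroblast list. The fibroblast median of 150.6 TPM was also above the bulge median of 81.7 TPM. The fibroblast list was uneven, with the collagen genes Col3a1, Col1a1 and Col1a2 at 287, 278 and 237 TPM. Dcn stood at 63.9 TPM, Lum at 11.8 TPM and Pdgfra, which encodes the CD140a sorted against, at 1.44 TPM. The 5 neuron markers stayed under 1 TPM, with Snap25 listed at 0. The part of these cells in the levels below was not tested, and in bulk RNA a gene used strongly by few cells cannot be told apart from a gene used weakly by many.

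Levels of the guidance genes ran from under 0.1 TPM to above 100 TPM. Of the 53, 37 (69.8%) reached 1 TPM and 23 (43.4%) reached 10 TPM, against 56.0% and 31.9% of 20774 nuclear protein-coding genes. Their median was 6.12 TPM, against 2.44 TPM for nuclear protein-coding genes. Between these levels, 14 members stood at 1 to under 10 TPM. A further 16 were under 1 TPM, 7 of them at 0.1 TPM or more and 9 below it, and none was listed at 0. The members nearest to the 1 TPM level were Sema3d above it at 1.18 TPM and Ephb2 below it at 0.512 TPM. The 53 genes summed to 1012 TPM, and the 5 highest of them held 42.2% of that sum. Those 5 were Ephb6, Sema3f, Ephb3, Plxnb2 and Epha1. In all, 9 members lay among the highest 10% of nuclear protein-coding genes.

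**Figure D1:**
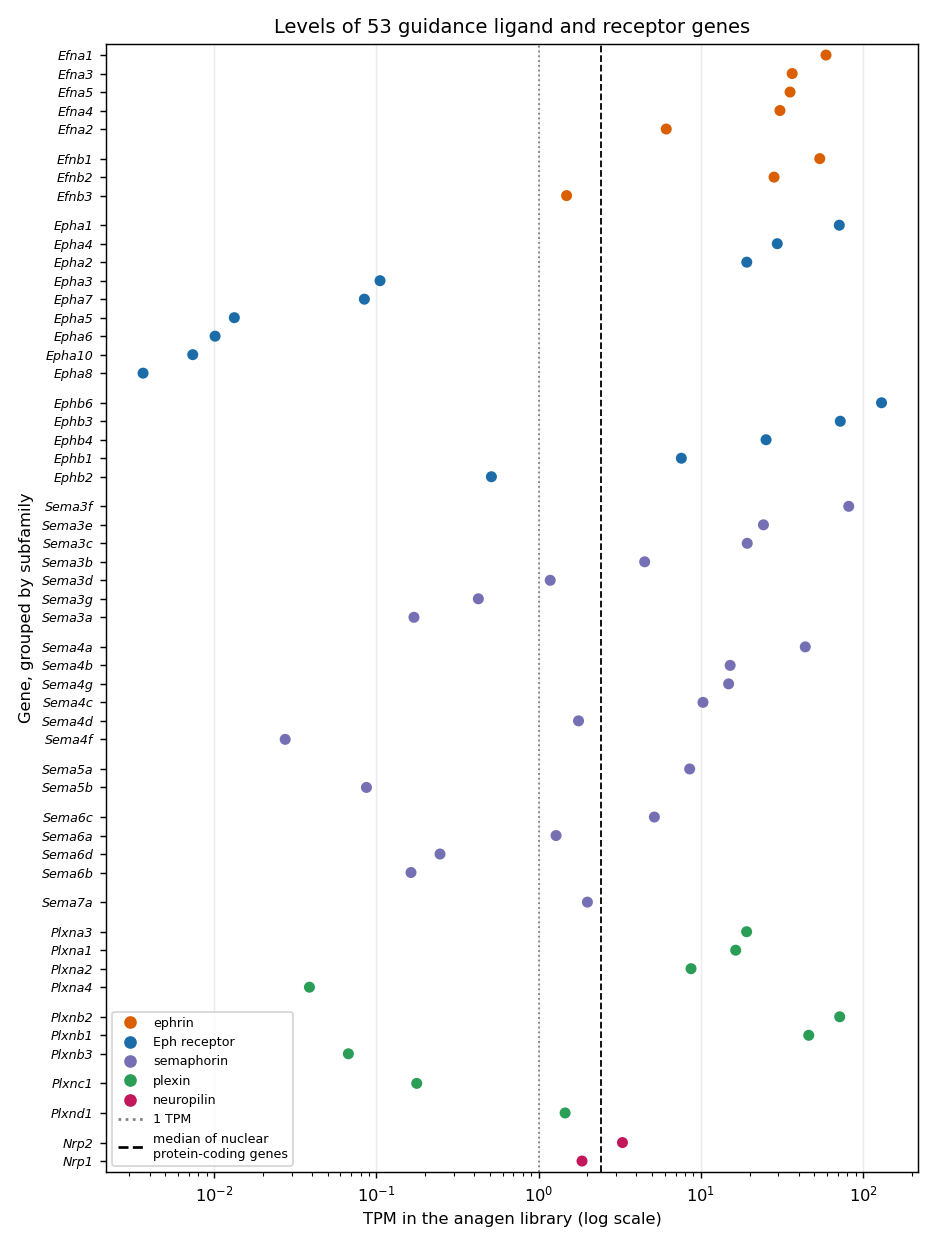
TPM of each of the 53 genes in the anagen library on a log axis, grouped by subfamily, with 1 point per gene and no error because there is 1 library. Ephrins lie between 1.49 and 59.1 TPM, while the Eph receptors spread from 0.00365 TPM for Epha8 to 130 TPM for Ephb6.

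Ephrins were the family with the highest median, 33.1 TPM, and all 8 reached 1 TPM. Among the lipid-anchored A class, Efna1, a ligand of Epha2 in epithelia, stood at 59.1 TPM (ENSMUSG00000027954). Efna3 and Efna5 followed at 36.5 and 35.5 TPM, Efna4 at 30.7 TPM and Efna2 at 6.12 TPM, so 4 of the 5 A ephrins lay within 1.92-fold of each other. Among the transmembrane B class, Efnb1 stood at 54.1 TPM and Efnb2, known as the arterial partner of Ephb4, at 28.3 TPM. Efnb3 was the lowest ephrin at 1.49 TPM. The A ephrins summed to 168 TPM and the B ephrins to 83.8 TPM.

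Eph receptors split into a high and a low set, with 7 of 14 at 7.58 TPM or more and the other 7 at 0.512 TPM or less. Of all nuclear protein-coding genes, 56.0% reached 1 TPM and 42.5% reached 5 TPM. The share of 7 of 14 lay near these, so the size of the high set does not set the receptors apart. Whether the gap between the sets is unusual was not tested. The highest member of all was Ephb6, at 130 TPM (ENSMUSG00000029869, chromosome 6, 41603834 to 41620509), higher than 97.5% of nuclear protein-coding genes. Ephb6 is a receptor without kinase activity. It was 1.80-fold above the next EphB gene, Ephb3, at 72.3 TPM, and alone made up 36.5% of the Eph receptor sum. Ephb4 stood at 25.2 TPM, Ephb1 at 7.58 TPM and Ephb2 at 0.512 TPM.

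Among the EphA receptors, 3 carried nearly the whole signal. Epha1, the founding member of the family, stood at 71.3 TPM, Epha4, which binds ephrins of both classes, at 29.6 TPM, and Epha2, a receptor of epithelial cells, at 19.2 TPM. Together they held 99.8% of the EphA sum of 120.3 TPM. The remaining 6 were far lower: Epha3 stood at 0.105 TPM, Epha7 at 0.0843 TPM, Epha5 at 0.0133 TPM, Epha6 at 0.0101 TPM, Epha10 at 0.00738 TPM and Epha8 at 0.00365 TPM. Several of these 6 are best known from the nervous system, whose 5 markers were also under 1 TPM here. A link between these low levels was not tested. Epha1 shares 1727 bases of its gene span with Zyx, which stood at 146 TPM. Whether counting used strand is not given in the sources used here, so reads of the overlap cannot be told apart.

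Receptor and ligand totals were of the same order. Eph receptors summed to 356 TPM, or 1.41 times the ephrin sum of 252 TPM. Without the kinase-inactive Ephb6 the receptor sum was 226.0 TPM, or 0.898 times the ephrin sum. EphB genes summed to 236 TPM, or 1.96 times the EphA genes. Without Ephb6 they summed to 105.7 TPM, or 0.878 times the EphA genes, so this order rests on Ephb6.

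**Figure D2:**
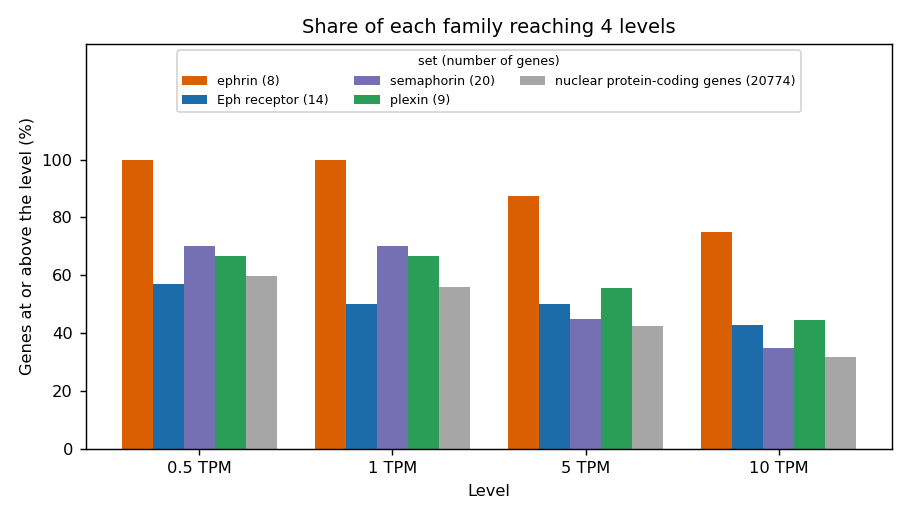
Share of ephrins, Eph receptors, semaphorins and plexins and of all nuclear protein-coding genes (in percent) at or above 0.5, 1, 5 and 10 TPM in the anagen library. At 10 TPM the shares are 75.0% of ephrins, 42.9% of Eph receptors, 35.0% of semaphorins and 44.4% of plexins, against 31.9% of nuclear protein-coding genes. The 2 neuropilins are not drawn.

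Semaphorins had a median of 3.25 TPM, and 14 of 20 reached 1 TPM. In the secreted class 3, Sema3f, a repellent that signals through Nrp2, stood at 81.6 TPM (ENSMUSG00000034684, chromosome 9, 107681499 to 107710475) and held 62.0% of the class sum. Sema3e, which binds Plxnd1 directly, stood at 24.3 TPM and Sema3c at 19.3 TPM. Sema3b and Sema3d were lower at 4.51 and 1.18 TPM. Sema3g and Sema3a were under 1 TPM, at 0.425 and 0.171 TPM.

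Class 4, of membrane-bound semaphorins, had the highest median of the semaphorin classes with more than 1 gene, 12.6 TPM. Sema4a, also known for its role in immune cells, led it at 44.0 TPM. Sema4b, Sema4g and Sema4c followed at 15.2, 14.8 and 10.3 TPM. Sema4d, the ligand of Plxnb1, stood at 1.76 TPM and Sema4f at 0.0274 TPM.

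Classes 5 to 7 were lower. Sema5a, with thrombospondin repeats next to its semaphorin domain, stood at 8.53 TPM and its relative Sema5b at 0.0869 TPM. In class 6, Sema6c stood at 5.17 TPM, Sema6a at 1.28 TPM, Sema6d at 0.247 TPM and Sema6b at 0.163 TPM. Sema7a, the lipid-anchored semaphorin, which binds Plxnc1 and beta 1 integrins, stood at 1.999 TPM.

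Plexin transcripts came mainly from the B class. Plxnb2 stood at 71.8 TPM (ENSMUSG00000036606, chromosome 15, 89155546 to 89182018) and Plxnb1 at 46.2 TPM, and together they held 72.0% of the plexin sum of 164 TPM. The X-linked Plxnb3 was at 0.0672 TPM. Among the A plexins, the partners of neuropilins, Plxna3 stood at 19.1 TPM, Plxna1 at 16.4 TPM, Plxna2 at 8.70 TPM and Plxna4 at 0.0387 TPM. Plxnd1 and Plxnc1 were low, at 1.46 and 0.177 TPM.

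Neuropilins were at 3.29 TPM for Nrp2 and 1.85 TPM for Nrp1, and summed to 5.14 TPM. The class 3 semaphorins without Sema3e, which binds its plexin directly, summed to 107 TPM, or 20.9 times the neuropilins. Nrp1 and Plxnd1 are also known from vessels. Their levels lay within the range of the 6 endothelial markers, 0.436 to 4.65 TPM, of which Pecam1 stood at 2.01 TPM. That range also holds Nrp2, several other members and the median of nuclear protein-coding genes, 2.44 TPM. The part of endothelial cells in the levels of Nrp1 and Plxnd1 was not tested.

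Known partners were set side by side in 24 ligand and receptor pairs, 12 of ephrins and 12 of semaphorins. Both partners reached 10 TPM in 8 of the 12 ephrin pairs and in 1 of the 12 semaphorin pairs. Taken singly, 31.9% of nuclear protein-coding genes reached 10 TPM, and no share was computed for pairs of such genes. The pairs were listed from background knowledge and are not all known pairs, so the counts depend on that choice. Sema3f and Sema3c were listed with Nrp2 and not with an A plexin, and Sema4a with Plxnd1 alone. Of the A plexins, Plxna3, Plxna1, Plxna2 and Plxna4 stood at 19.1, 16.4, 8.70 and 0.0387 TPM. The pairs also reuse genes, so these counts are not independent. Efnb2 and Ephb4 stood at 28.3 and 25.2 TPM, a ratio of 1.12, and Efnb2 and Epha4 at a ratio of 0.955. Efna1 was 3.08-fold above Epha2 and 0.828 times Epha1. Efnb1 was 0.747 times Ephb3, while its other partner Ephb2 was under 1 TPM. Efna3, Efna4 and Efna5 were 1.24, 1.60 and 1.199 times their partners Epha4, Epha2 and Epha4. Some ephrin partners lay far apart too: Efnb3 was 0.0503 times Epha4 and 0.0206 times Ephb3, and Efna2 stood at 6.12 TPM against 0.105 TPM for Epha3.

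Among semaphorin pairs, both directions occurred. Sema3f was 24.8-fold above Nrp2, Sema3c 5.87-fold above Nrp2, and Sema3e 16.7-fold above Plxnd1. Sema4a, for which Plxnd1 is among the known receptors, was 30.2-fold above it. In other pairs the receptor was the higher partner: Sema4c was 0.144 times Plxnb2, Sema4d was 0.0381 times Plxnb1 and Sema6a was 0.147 times Plxna2. Sema6d stood at 0.247 TPM against 16.4 TPM for Plxna1. For Sema5a at 8.53 TPM the receptor Plxnb3 was at 0.0672 TPM, for Sema6a the receptor Plxna4 was at 0.0387 TPM, and for Sema7a at 1.999 TPM the receptor Plxnc1 was at 0.177 TPM. Sema3a, the classical ligand of Nrp1, was itself under 1 TPM.

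**Figure D3:**
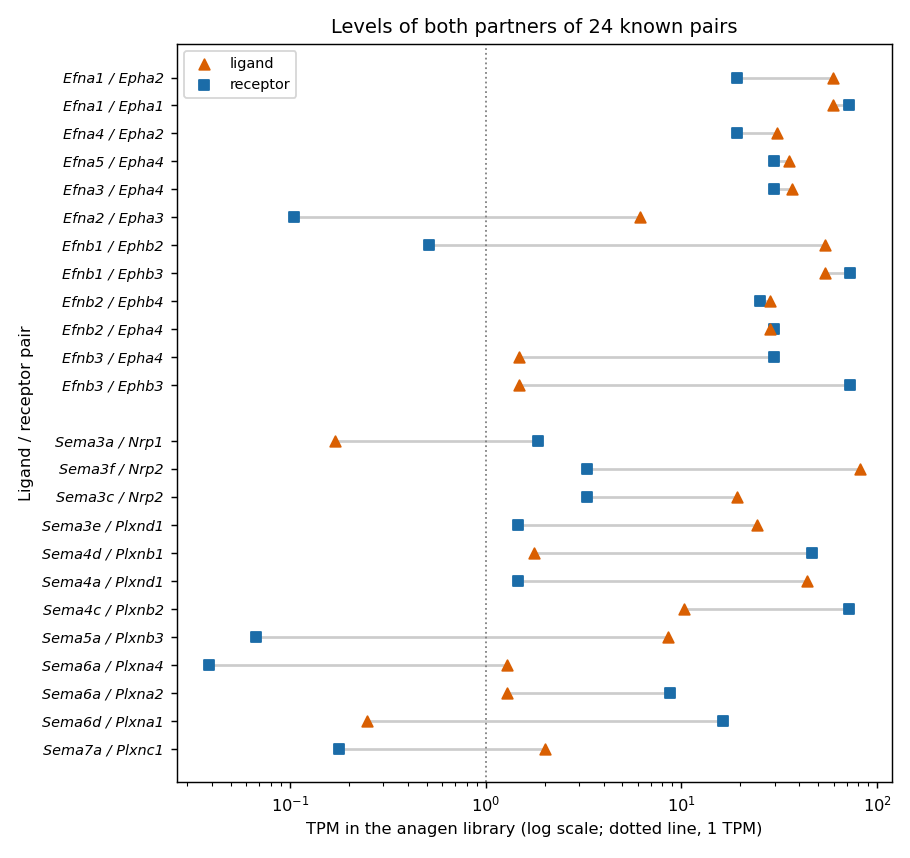
TPM of the ligand (triangle) and the receptor (square) of 24 known pairs in the anagen library, on a log axis with 1 TPM dotted. Efnb2 and Ephb4 lie almost together at 28.3 and 25.2 TPM, whereas Sema3f at 81.6 TPM lies far from Nrp2 at 3.29 TPM.

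Some members lie close to each other in the genome (RefSeq, assembly GRCm38.p6, of which mm10 is another name). Efna1, Efna3 and Efna4 follow each other on chromosome 3 between 89271730 and 89338028, with no other protein-coding gene between them, and all 3 were expressed at 30.7 TPM or more. Sema3b and Sema3f lie 72257 bases apart on chromosome 9, with Gnai2, Slc38a3 and Gnat1 between them at 536.5, 2.35 and 0.536 TPM, and Sema3f was 18.1-fold above Sema3b. Ephb2 and Epha8 lie 93092 bases apart on chromosome 4 and were both under 1 TPM, while the complement genes C1qa, C1qb and C1qc between them stood at 5.11, 3.69 and 3.26 TPM. No other members lay within 100000 bases of each other.

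Promoter sequence was read from RefSeq windows, which 47 of the 53 genes had. Sema3f, Plxna1, Sema3b, Efnb3, Sema6a and Plxna4 had none. CpG dinucleotides, written CG and equal on both strands, mark the promoters of most broadly used genes, so they were counted in the 250 bases before the start. Where a gene had several windows, the one with most CG was taken. Of the 15 members under 1 TPM with a window, 10 (66.7%) were CpG-rich, meaning at least 50% G and C and at least 0.6 times the CG count that the base composition gives. Among all 7284 nuclear protein-coding genes under 1 TPM with a window, 16.9% were. Of the 21 members at 10 TPM or more, 11 (52.4%) were CpG-rich, against 74.0% of 5420 nuclear protein-coding genes at that level. Ephb3, Efnb1 and Sema4a lay just under the 0.6 cutoff, at 0.598, 0.578 and 0.573, so the member share depends on that cutoff. Across all levels, 57.4% of the members and 45.9% of 16677 nuclear protein-coding genes were CpG-rich. The median CG count was 18 in members at 10 TPM or more and 17 in members under 1 TPM, against 18 and 3 in nuclear protein-coding genes. Epha8, the lowest member, had the most, 46, and Ephb6, the highest, had 27. This is a description of base content and no test was made.

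The sequences below are shown as examples of how base content and level vary, for the 2 highest and the 2 lowest of the 13 members with a lone window clear of every annotated gene. Each runs 5′ to 3′ on the gene's strand and ends just before the start, with CG in capitals (RefSeq, GRCm38.p6). Efnb1, at 54.1 TPM, is read from chrX:99135811-99136060 on the plus strand and holds 13 CG. Efna5, at 35.5 TPM, is read from chr17:62881318-62881567 on the minus strand and holds 32. Epha3, at 0.105 TPM, is read from chr16:63864176-63864425 on the minus strand and holds 16. Sema4f, at 0.0274 TPM, is read from chr6:82939770-82940019 on the minus strand and holds 4.
Efnb1: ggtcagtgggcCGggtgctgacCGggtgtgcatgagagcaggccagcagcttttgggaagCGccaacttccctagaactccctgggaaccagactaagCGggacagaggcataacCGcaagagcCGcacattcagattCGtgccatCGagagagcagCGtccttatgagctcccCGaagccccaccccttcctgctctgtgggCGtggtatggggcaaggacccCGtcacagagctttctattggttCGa
Efna5: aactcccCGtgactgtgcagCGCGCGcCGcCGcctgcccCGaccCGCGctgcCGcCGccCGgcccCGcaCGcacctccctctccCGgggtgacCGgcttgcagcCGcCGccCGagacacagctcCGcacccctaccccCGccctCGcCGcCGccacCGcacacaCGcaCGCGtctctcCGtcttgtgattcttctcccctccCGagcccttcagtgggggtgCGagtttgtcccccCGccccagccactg
Epha3: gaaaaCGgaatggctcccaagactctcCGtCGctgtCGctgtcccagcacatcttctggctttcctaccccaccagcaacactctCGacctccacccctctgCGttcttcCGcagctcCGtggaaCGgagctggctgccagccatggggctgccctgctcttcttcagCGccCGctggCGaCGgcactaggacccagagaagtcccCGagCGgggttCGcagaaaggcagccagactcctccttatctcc
Sema4f: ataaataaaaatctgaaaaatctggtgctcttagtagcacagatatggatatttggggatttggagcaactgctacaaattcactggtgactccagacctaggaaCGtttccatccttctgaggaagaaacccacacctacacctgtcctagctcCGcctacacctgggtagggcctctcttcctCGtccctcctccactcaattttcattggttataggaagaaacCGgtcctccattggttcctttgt
In these windows Epha3 has more CG than Efnb1, while Efnb1 was the far more abundant RNA. Efna5 has the most CG of the 4 and Sema4f the fewest. By the definition above, Efna5 and Epha3 are CpG-rich, while Efnb1 and Sema4f are not.

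**Figure D4:**
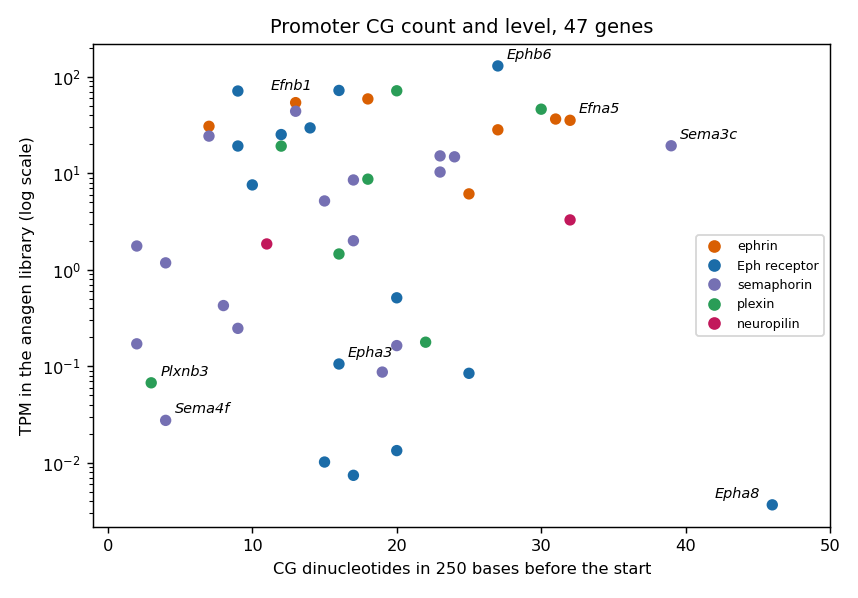
CG dinucleotides in the 250 bases before the start (x axis) and TPM in the anagen library (y axis, log scale) of the 47 genes with a window, 1 point per gene. Members under 1 TPM hold between 2 and 46 CG, and members at 10 TPM or more between 7 and 39.

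Genes listed as partners of these signals inside the cell mostly reached 1 TPM, as did 56.0% of all nuclear protein-coding genes. Many of the listed genes also serve other pathways, so their levels do not measure these signals. Of 30 Eph effector genes with a value, 28 reached 1 TPM, and the median was 18.8 TPM. The Ras GTPase-activating gene Rasa1 led at 101 TPM, followed by the syntenin gene Sdcbp at 86.9 TPM, the kinase Src at 70.6 TPM and the Rac activator Tiam1 at 66.7 TPM. Lowest were Chn1 at 0.546 TPM and Ngef, which encodes the neuronal exchange factor ephexin, at 0.358 TPM. Genes that cleave ephrins and Eph receptors reached 1 TPM in 9 of 10 cases, with gamma-secretase subunits Aph1a, Ncstn and Psenen at 65.3, 51.3 and 49.6 TPM and the ephrin sheddase Adam10 at 26.2 TPM. The lowest there were Rhbdl2 at 11.3 TPM and Mmp9 at 0.0445 TPM.

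Of 38 semaphorin and plexin effector genes, 37 reached 1 TPM, against 56.0% of all nuclear protein-coding genes, and the median was 12.6 TPM. The actin-severing gene Cfl1 and the GTPase genes Rac1, Rhoa and Cdc42 led at 647, 181, 160 and 140 TPM, and these serve many other pathways. Dpysl2, a collapsin response mediator of class 3 signalling in neurons, and its relative Crmp1 were lowest, at 1.26 and 0.0245 TPM. Genes listed as other semaphorin receptors and co-receptors reached 1 TPM in 8 of 12 cases, near the share of all nuclear protein-coding genes. This count leaves out the ligand gene Vegfa, which shares neuropilins with semaphorins and stood at 10.7 TPM. The list was led by the integrin gene Itgb1 at 135 TPM, Ptk7 at 62.5 TPM, Lrp1 at 43.4 TPM and Cd109 at 14.7 TPM. Timd2 and Trem2 were lowest there, at 0.157 and 0.0593 TPM. Lrp1 and Cd109 are known from lipoprotein uptake and TGF-beta signalling and are not established semaphorin receptors, although both count among the 8.

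Genes of the other guidance systems were lower as lists, with a few abundant members. Slits, their Robo receptors and the linked srGAP genes, 10 in all, had a median of 0.959 TPM. Slit3 led at 31.6 TPM, followed by Srgap2 at 7.43 TPM, Robo1 at 2.88 TPM and Robo2 at 2.70 TPM, with Robo3 and Slit1 lowest at 0.0698 and 0.0337 TPM. Netrins, repulsive guidance molecules and their receptors had a median of 0.319 TPM (15 genes). Rgma, a ligand of neogenin, stood at 56.2 TPM, Ntn4 at 44.6 TPM, the neogenin gene Neo1 at 15.8 TPM and Rgmb at 14.9 TPM. The netrin receptors Unc5a and Unc5d were lowest, at 0.00455 TPM and listed at 0.

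**Figure D5:**
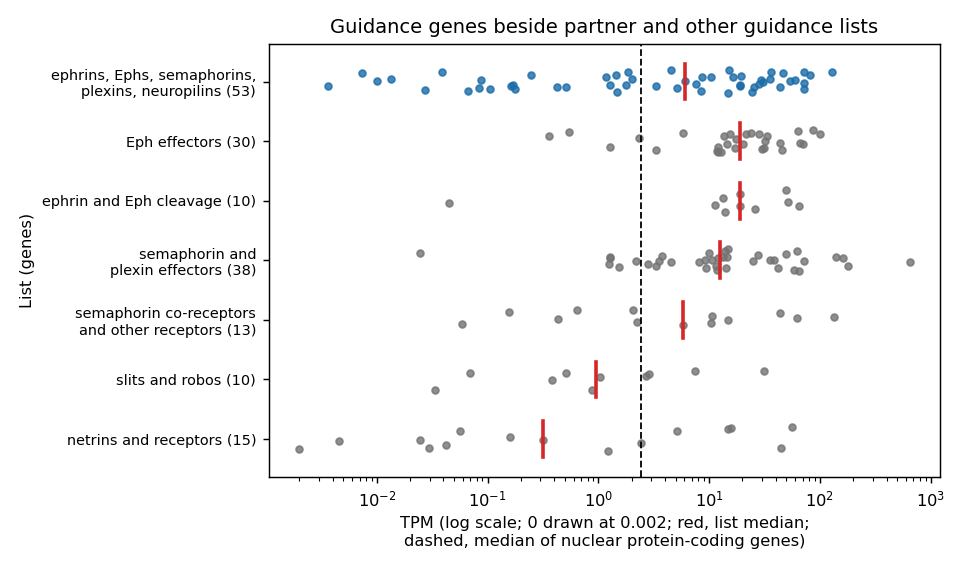
TPM of the 53 ephrin, Eph, semaphorin, plexin and neuropilin genes (blue) and of 6 lists of partner and other guidance genes (grey) in the anagen library, 1 point per gene, with list medians in red. The members' median of 6.12 TPM lies between those of the Eph effectors at 18.8 TPM and of the netrin list at 0.319 TPM.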

How the data were processed

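RNA of sorted hair follicle stem cells was measured by paired-end RNA-seq on an Illumina HiSeq instrument after an mRNA library kit, per the labels' protocols. The deposited values are TPM per gene, per the file headers. Bowtie2 2.2.9, RSEM 1.2.30 and mm10 stand in the submitters' processing notes. The strand setting, any filter and the annotation were not given in the sources used here. The table's column numbered 1 was taken as the anagen sample, whose title alone carries that number. The other 11 columns of per-sample values were not used, and anagen was not compared with telogen.

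The table has 42661 rows, and each of its 42392 gene IDs was used once, summing to 1000000 TPM. Nuclear protein-coding genes, 20774 in all, were taken by symbol from RefSeq (GRCm38.p6), which matched all 53 members. A symbol on several IDs took the higher value. Of the listed genes, Grb4 (an alias of Nck2) and Ntn3 had no value by symbol. Every member is named, with the 4 highest and the 2 lowest genes of the partner lists. The marker lists, planned to be named in full, are given by counts and sums, and only the fibroblast list is named in full. Members and lists were chosen with earlier results of these data known, and the CpG counts and the choice of sequences were added after levels were seen. Planned protein features were not computed. The calculation of the percent of genes below a level was checked against direct counting. The check used levels drawn from this library and multiplied by fixed factors. It says nothing of the precision of the levels. Python 3.11.15, pandas 2.3.3, numpy 2.4.6 and matplotlib 3.10.9 were used.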

Additional observations from a re-analysis of the deposited data

How the results depend on the processing

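The number of members at 1 TPM or more, 37 of 53, was 38 at a level of 0.5 TPM, 28 at 5 TPM, and 37 or 38 under the rescalings and ways of naming genes tried. Of nuclear protein-coding genes, 56.0% reached 1 TPM, 59.8% reached 0.5 TPM and 42.5% reached 5 TPM. The share at 1 TPM was 60.0% after rescaling to nuclear protein-coding genes. It was 59.0% after leaving out mitochondrial and the 50 highest genes. The median over all members, 6.12 TPM, was 12.8 TPM after rescaling to nuclear protein-coding genes and 10.6 TPM after leaving out mitochondrial and the 50 highest genes, where the median of nuclear protein-coding genes was 5.09 and 4.20 TPM. It was 19.1 TPM over the members at 1 TPM or more, and the geometric mean was 6.09 TPM with a pseudocount of 1 and 3.74 TPM with one of 0.1. The order of the 5 families by median (ephrins, plexins, Eph receptors, semaphorins, neuropilins) changed at 2 places when only members at 1 TPM or more were used, where Eph receptors at 29.6 TPM came before plexins at 17.8 TPM, and at 4 places by summed TPM, where Eph receptors came first. Rescaling multiplies every gene by 1 factor, so ratios and ranks do not move. No paired analysis was possible because the telogen library was not analysed. Read depth is unknown, so values under 0.1 TPM have no known precision.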

Other observations

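In the RefSeq annotation, 25 of the 53 members overlap another annotated gene, 4 of them a protein-coding one. The share of all nuclear protein-coding genes with such an overlap was not computed, so these counts do not set the members apart. Besides Epha1 with Zyx, Sema3b at 4.51 TPM shares 317 bases with Lsmem2 at 2.33 TPM. Plxna1 and Epha5 overlap the predicted genes Gm40415 and Gm42163, which have no value here. The span of Epha5, at 0.0133 TPM, also holds the pseudogene Hmgn2-ps1 at 26.6 TPM.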
